A study of Mus musculus with 20 samples.

Results

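The 10 genes described here are the Notch receptors *Notch1*, *Notch2* and *Notch3*, the ligands *Jag1*, *Jag2* and *Dll1*, the target genes *Hes1*, *Hey1* and *Heyl*, and *Rbpj*, which encodes the DNA-binding protein of the pathway. They were chosen by name and are 10 of the 53380 genes in the table of normalized counts. All 10 names were found once. The study sorted 5 populations from mouse dorsal epidermis and sequenced their RNA, to ask how basal keratinocytes with much Thy1 on their surface differ from their neighbours. The 20 libraries comprised 5 of DETCs (integrin-α6-negative, Sca1-low, Thy1+), which are the dendritic T cells resident in the epidermis, and 4 of HFSCs (α6+, Sca1-negative, CD34+), the stem cells of the hair follicle. There were 4 libraries of Thy1hi cells and 4 of Thy1- cells, both of them α6+ Sca1+ keratinocytes, and 3 of Thy1hi YFP+ cells.

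For every sample, controls included, the labels give the genotype Thy1.2CreERT2-Rosa26-EYFP and no treatment, whereas the study's methods describe wild-type mice of 8 weeks for the other populations and tamoxifen-induced mice of that line for the YFP+ cells. In that line an inducible Cre recombinase under the Thy1 promoter switches on a yellow fluorescent protein, so the YFP+ cells are those, and their offspring, that used the promoter when tamoxifen was given. The cell type label of the YFP+ samples reads ScaI-, while their titles and the methods have Sca1+. The labelled ages rise by 1 week per sample in the order of the listing, from 8 to 11 weeks in HFSCs, 12 to 16 in DETCs, 17 to 19 in Thy1hi YFP+ cells, 20 to 23 in Thy1hi cells and 24 to 27 in Thy1- cells, so labelled age and population cannot be told apart. Some of the study's figure legends give a number of mice for each sequenced population, and others mention pooled mice. The numbers of mice given for DETCs and HFSCs differ from their numbers of libraries here. How many mice entered a library is not clear, so p-values measure the spread between these libraries, which may be partly technical.

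Notch signalling passes between touching cells. A ligand on 1 cell binds a receptor on the next, the receptor is cut by an ADAM protease and then by γ-secretase, and the freed intracellular domain enters the nucleus, where it joins Rbpj and a Mastermind coactivator to switch on genes of the Hes and Hey families of repressors. In the epidermis the pathway is known for its part in the commitment of basal keratinocytes to differentiation, in the hair follicle for the fate of its lineages, and in lymphocytes for the choice of the T cell lineage. *Notch1* and *Notch2* encode receptors of keratinocytes and lymphocytes alike, *Jag1*, *Jag2* and *Dll1* encode ligands found in the epidermis, and *Hes1* is the target most widely used as a sign of signalling.

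Promoter sequences from RefSeq (GRCm38.p6, 250 bases before and 50 after a transcription start) were matched by symbol for 7 of the 10 members, in 9 entries. Shown are *Notch1* and *Dll1*, the members called between Thy1hi cells and HFSCs, *Notch3*, the receptor called between Thy1hi and Thy1- cells in the paired fit, and *Rbpj*, whose promoter was the 1 that held the motif searched for. In them, capitals mark the letters TGGGAA, the core of the site that Rbpj is known to bind, searched on both strands. The *Notch1* entry lies at chr2:26503773-26504072 on the minus strand, and its start is 12841 bases inside the gene model of the deposited table (chr2:26457903-26516663).
Notch1: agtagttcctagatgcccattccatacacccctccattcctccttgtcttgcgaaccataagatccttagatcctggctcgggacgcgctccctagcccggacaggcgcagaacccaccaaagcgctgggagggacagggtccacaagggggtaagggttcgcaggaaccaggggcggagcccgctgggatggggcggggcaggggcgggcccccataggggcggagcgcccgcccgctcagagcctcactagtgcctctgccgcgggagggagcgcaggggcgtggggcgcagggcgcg
The *Notch3* entry, chr17:32166841-32167140 on the minus strand, starts 10 bases from the gene model of the table.
Notch3: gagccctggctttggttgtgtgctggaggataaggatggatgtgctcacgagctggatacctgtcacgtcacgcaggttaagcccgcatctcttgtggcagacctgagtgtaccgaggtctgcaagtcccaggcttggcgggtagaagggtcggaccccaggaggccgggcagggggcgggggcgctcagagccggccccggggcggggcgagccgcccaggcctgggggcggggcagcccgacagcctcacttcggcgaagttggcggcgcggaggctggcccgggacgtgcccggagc
The upstream *Dll1* entry, chr17:15376883-15377182 on the minus strand, starts 60 bases from the gene model.
Dll1: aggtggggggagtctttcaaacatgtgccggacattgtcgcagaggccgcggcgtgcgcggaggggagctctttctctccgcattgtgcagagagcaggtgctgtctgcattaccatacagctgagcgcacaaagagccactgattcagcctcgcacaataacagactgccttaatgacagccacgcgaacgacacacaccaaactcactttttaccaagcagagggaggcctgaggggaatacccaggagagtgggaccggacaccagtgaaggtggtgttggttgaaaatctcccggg
The first *Rbpj* entry, chr5:53590096-53590395 on the plus strand, lies 124194 bases inside the gene model and holds the core at 2 places.
Rbpj: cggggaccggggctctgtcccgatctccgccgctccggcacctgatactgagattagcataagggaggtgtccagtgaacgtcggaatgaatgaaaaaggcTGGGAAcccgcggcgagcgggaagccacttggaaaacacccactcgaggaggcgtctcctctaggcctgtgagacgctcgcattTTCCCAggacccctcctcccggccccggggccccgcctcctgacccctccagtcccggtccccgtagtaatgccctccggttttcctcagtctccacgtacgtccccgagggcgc
Of the 7 members with an entry, *Rbpj* was the 1 whose promoter held the core, and 25.6% of all 32851 promoters of this length hold it. The targets *Hes1*, *Hey1* and *Heyl* had no entry, so their promoters were not searched. None of the 9 entries held TATAAA on either strand (0 of 9), beside 13.6% of all promoters. The 9 entries had 55.7% to 86.0% G and C, against a median of 52.7% over all promoters. A match is a description of the letters and is no evidence of binding.

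The libraries had 7781256 to 12982392 reads on genes, of which 13.1% to 41.5% fell on the ribosomal RNA gene *Rn45s*. T cell markers (*Cd3d*, *Cd3e*, *Cd3g*, *Cd2*, *Ptprc*) summed to 14319 to 31645 normalized counts in DETC libraries and to 99.7 to 375 elsewhere, and hair follicle stem cell markers (*Cd34*, *Lgr5*, *Lhx2*, *Tbx1*) to 3920 to 4711 in HFSC libraries and at most 384 elsewhere. All 5 basal keratinocyte markers (*Krt5*, *Krt14*, *Itga6*, *Itgb4*, *Col17a1*) were also read in the DETC libraries, where they summed to 46131 in replicate 1, 33571 in replicate 2, 42972 in replicate 3, 9972 in replicate a and 40304 in replicate b. The same sum was 171225 to 228574 in Thy1hi libraries, 48623 to 114606 in HFSC libraries, 75406 to 121650 in Thy1- libraries and 148331 to 257322 in Thy1hi YFP+ libraries. DETC replicates a and b are so named because the numbers in their column headings match no sample title. Melanocyte markers summed to 24.3 to 272 over all libraries, endothelial markers to 22.8 to 107 and Langerhans cell markers to 44.8 to 3886. Fibroblast markers summed to 178 to 1881 in Thy1hi libraries, 343 to 1265 in DETC libraries, 221 to 747 in HFSC libraries, 120.5 to 202 in Thy1- libraries and 40.6 to 211 in Thy1hi YFP+ libraries. HFSC replicate 4 stood apart from the other HFSC libraries. It had the lowest basal marker sum of that population (48623) and the lowest share of *Rn45s* (13.1%). As given below, its *Hes1* level (128) was by far the lowest of that population. It was also the lowest HFSC library for *Notch1*, *Notch2*, *Notch3*, *Jag1*, *Jag2*, *Dll1*, *Hey1* and *Rbpj*. Its Langerhans cell marker sum was 44.8, against 1946, 3886 and 2743 in HFSC replicates 1 to 3. Its T cell marker sum was 149, against 256, 311 and 304 in those libraries. Its hair follicle stem cell marker sum, 4238, lay inside their range (3920 to 4711). In bulk libraries, fewer cells of a type and less RNA per cell cannot be told apart.

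The column of Thy1- replicate 4 was displaced for 3212 genes, whose values follow an ordering of the names that ignores hyphens, and the 3 receptors were among them. As deposited, this library lists *Notch1* and *Notch2* at 0 and *Notch3* at 1.64. Put back in row order, it held 6040, 1404 and 571 normalized counts, inside the ranges of the other Thy1- libraries (4782 to 6559, 1037 to 1928 and 418 to 700.0). The other 7 members did not move. The restored order was used throughout.

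*Notch1*, the main receptor of basal keratinocytes, was highest in the 2 Sca1+ keratinocyte populations sorted without a reporter. Its normalized counts were 6789, 6669, 6300 and 5490 in Thy1hi replicates 1 to 4 and 6559, 5884, 4782 and 6040 in Thy1- replicates 1 to 4. They were 2746, 3807, 3705 and 1429 in HFSC replicates 1 to 4 and 2780, 4415 and 4111 in Thy1hi YFP+ replicates 1 to 3. DETC replicates 1, 2, 3, a and b had 2270, 3655, 3290, 2080 and 3974. Each Thy1hi and Thy1- library was above each library of the other 3 populations, while the ranges of YFP+ cells, DETCs and HFSCs overlapped. The mean of Thy1hi cells (6312 ± 586, SD, n = 4) was 2.31-fold that of HFSCs (2922 ± 1104, n = 4) on the log2(normalized count + 1) scale, a log2 difference of 1.21 ± 0.27 (SE, adjusted p = 0.00506, limma). Thy1- cells (5816 ± 747, n = 4) exceeded HFSCs by 1.08 ± 0.27 (adjusted p = 0.0210), a call that was lost without Thy1- replicate 1 (adjusted p = 0.0753), without replicate 2 (0.0536) or with these populations alone in the fit (0.0879). From Thy1hi cells to DETCs (3054 ± 841, n = 5) it fell by 1.09 ± 0.26 (adjusted p = 0.00217).

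*Notch2*, a second receptor of the same cells, was called in none of the 6 comparisons (0 of 6). Its mean was 1400 ± 382 normalized counts in Thy1- cells, 1205 ± 293 in Thy1hi YFP+ cells, 1203 ± 203 in HFSCs, 1152 ± 293 in DETCs and 953 ± 206 in Thy1hi cells, and all neighbours in this order overlapped. *Notch3*, known best from vascular smooth muscle and also present in the epidermis, was the lowest of the receptors. Thy1hi replicates 1 to 4 had 188, 270.0, 299 and 371 normalized counts of it, and Thy1- replicates 1 to 4 had 463, 700.0, 418 and 571. Every Thy1- library was therefore above every Thy1hi library. HFSC replicates 1 to 4 had 502, 432, 509 and 337, and Thy1hi YFP+ replicates 1 to 3 had 870.2, 608 and 364. DETC replicates 1, 2, 3, a and b had 270.1, 320, 354, 75.5 and 349, with replicate a far below the rest.

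Per kilobase of annotated exon, *Notch1* supplied most of the receptor transcripts, with 78.2% ± 5.5 (SD, n = 4) of the sum of the 3 receptors in Thy1hi cells, 67.7% ± 5.8 in Thy1- cells, 60.2% ± 3.3 (n = 5) in DETCs, 58.6% ± 12.5 (n = 3) in Thy1hi YFP+ cells and 53.7% ± 8.4 (n = 4) in HFSCs. The share of *Notch3* was 4.06% to 8.40% in Thy1hi libraries, below the 9.32% to 12.8% of Thy1- libraries, the 12.6% to 17.9% of HFSC libraries and the 10.9% to 24.8% of Thy1hi YFP+ libraries, with no overlap. In DETC libraries it was 3.83% to 11.8%, which overlaps the Thy1hi range. The sum of the 3 receptors per kilobase was 567 ± 14.8 normalized counts in Thy1hi cells and 605 ± 74.3 in Thy1- cells. The ranges of this sum overlapped, while those of the *Notch3* share did not. In 36 exact permutation tests of receptor and ligand shares between populations, none passed 0.05 after Benjamini-Hochberg adjustment. The smallest adjusted p was 0.114, and 0.0286 is the smallest unadjusted p that 4 against 4 libraries can give. With the length of the longest protein-coding transcript in place of all exons, a choice made after the data were seen, the 36 differences had the same direction.

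**Figure D1:**
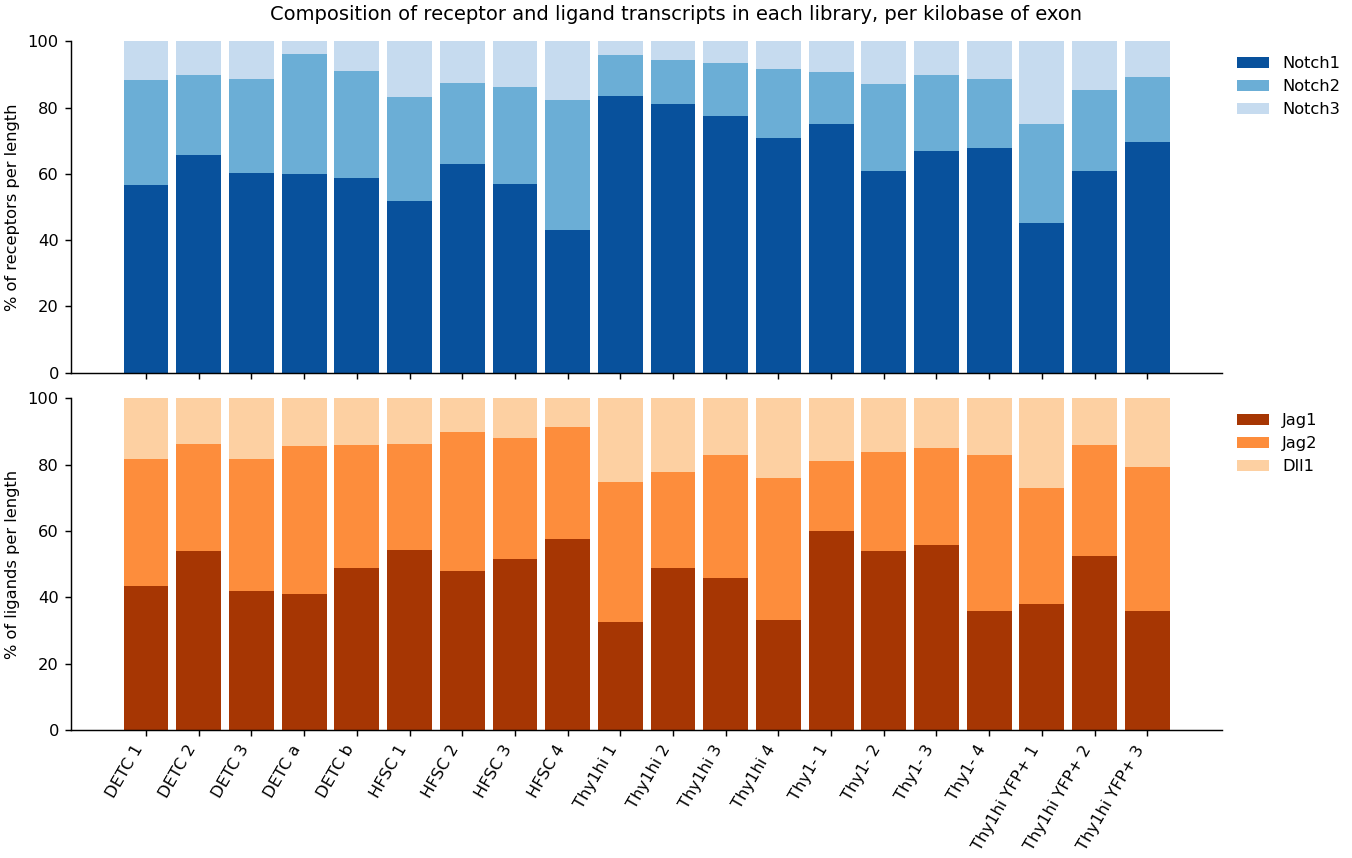
Stacked bars give the percentage of each receptor (upper panel) and each ligand (lower panel) in the sum of its family, per kilobase of exon, in each of the 20 libraries on the horizontal axis. *Notch1* fills 70.8% to 83.5% of the bar in the Thy1hi libraries and 43.1% to 63.0% in the HFSC libraries.

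The 3 ligands had their lowest means in DETCs. *Jag1*, a ligand of the Jagged kind, had 785, 987, 879.9, 311 and 939 normalized counts in DETC replicates 1, 2, 3, a and b. It had 1554, 2379, 1996 and 1972 in Thy1hi replicates 1 to 4 and 1947, 1641, 1955 and 1503 in HFSC replicates 1 to 4. No DETC library reached the lowest library of either population. *Jag1* fell by 1.43 ± 0.26 (SE) on the log2 scale from Thy1hi cells to DETCs (2.69-fold, adjusted p = 0.000201) and by 1.27 ± 0.26 from HFSCs to DETCs (adjusted p = 0.000629). No comparison among the keratinocytes called it, with means of 2142 ± 549 in Thy1- cells, 1975 ± 337 in Thy1hi cells, 1762 ± 226 in HFSCs and 1370 ± 176 in Thy1hi YFP+ cells.

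*Jag2*, the other Jagged ligand, had its highest mean in Thy1hi cells, with 2427, 1675, 1946 and 3029 normalized counts in replicates 1 to 4. Thy1- replicates 1 to 4 had 1227, 1254, 1322 and 2555, HFSC replicates 1 to 4 had 1375, 1704, 1643 and 1062, and Thy1hi YFP+ replicates 1 to 3 had 1473, 1194 and 1749. DETC replicates 1, 2, 3, a and b had 832, 707, 1005, 403 and 859, below every library of the other populations. The fall to DETCs was 1.60 ± 0.26 from Thy1hi cells (adjusted p = 5.99e-05) and 0.96 ± 0.26 from HFSCs (adjusted p = 0.00616).

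*Dll1*, the Delta-like ligand of basal keratinocytes, had the widest fold range of population means among the 3. Its normalized counts were 879, 784, 535 and 1029 in Thy1hi replicates 1 to 4, 668, 414, 413 and 561 in Thy1- replicates 1 to 4, and 689.8, 301 and 503 in Thy1hi YFP+ replicates 1 to 3. HFSC replicates 1 to 4 had 360.1, 252, 330.3 and 160.4, and DETC replicates 1, 2, 3, a and b had 239, 183, 279.9, 79.6 and 196. Each Thy1hi and Thy1- library was above each HFSC and DETC library. Thy1hi cells exceeded HFSCs by 1.57 ± 0.34 (2.97-fold, adjusted p = 0.00389), with an exact two-sided permutation p of 0.0286, the smallest that 4 against 4 libraries allow. Thy1- cells exceeded HFSCs by 0.93 ± 0.34, which missed the threshold (adjusted p = 0.109). The difference between DETCs and Thy1hi cells was -2.11 ± 0.33 (4.33-fold, adjusted p = 2.97e-05), the largest among the members in that comparison.

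Per kilobase of exon, the 3 ligands together stood at 856 ± 114 normalized counts in Thy1hi cells, 718 ± 107 in Thy1- cells, 575 ± 88.5 in HFSCs, 565 ± 48.6 in Thy1hi YFP+ cells and 289.5 ± 91.3 in DETCs. *Dll1* made up 16.9% to 25.3% of this sum in Thy1hi libraries and 8.48% to 13.8% in HFSC libraries. It was the least abundant of the ligands per length in each population mean. *Jag1* made up 40.1% ± 8.5 in Thy1hi cells and 52.8% ± 4.0 in HFSCs.

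*Hes1*, the basic helix-loop-helix repressor, was by far the most abundant of the 3 targets, with 95.7% to 99.4% of their sum per kilobase in the population means. Thy1hi replicates 1 to 4 had 2153, 1631, 1013 and 1488 normalized counts of it, and Thy1- replicates 1 to 4 had 1082, 1199.8, 989 and 1577. HFSC replicates 1 to 4 had 870.4, 1215, 1219.8 and 128, so that 1 library set most of the spread of that population. DETC replicates 1, 2, 3, a and b had 410.0, 647, 674, 176 and 705, and Thy1hi YFP+ replicates 1 to 3 had 696, 1109 and 615. All DETC libraries were below all Thy1hi libraries, and from Thy1hi cells to DETCs *Hes1* fell by 1.70 ± 0.51 (adjusted p = 0.0124). The difference between Thy1hi cells and HFSCs was 1.25 ± 0.54 (adjusted p = 0.135), and without HFSC replicate 4 it was 0.48.

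*Hey1* and *Heyl*, the other target repressors, were near the limit of what these libraries could count. *Hey1* had 5 to 27 reads per library and a mean of 20.0 ± 6.42 normalized counts in DETCs, 17.5 ± 7.90 in HFSCs, 13.4 ± 3.58 in Thy1hi cells, 11.8 ± 4.18 in Thy1- cells and 7.54 ± 2.47 in Thy1hi YFP+ cells. No comparison called it. *Heyl* had 1, 18, 11, 9 and 12 reads in DETC replicates 1, 2, 3, a and b, 0 to 3 in HFSC libraries, 2 to 6 in Thy1hi libraries, 1 to 7 in Thy1- libraries and 0 to 1 in Thy1hi YFP+ libraries. It passed the filter on low values through 3 DETC libraries alone, so a higher DETC value was a condition of its test, and the call in DETCs over HFSCs (1.90 ± 0.64, adjusted p = 0.0233) supports nothing by itself. It was lost under 5 of 12 other settings and without HFSC replicate 1 or DETC replicate 2, a or b (adjusted p = 0.0540 to 0.102). Pooled over libraries and divided by the size factors, 51 reads in DETCs against 8 in HFSCs gave a ratio of 5.48 (exact 95% interval 2.58 to 13.4), which covers counting error only and not the spread between libraries. The same filter holds for this ratio, so it describes the counts and is no evidence of a difference either. DETC replicate 1, with 1 read, lay inside the HFSC range.

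*Rbpj*, the partner through which the freed receptor acts on DNA, had its highest mean in DETCs, with 942, 925, 764, 1174 and 813 normalized counts in replicates 1, 2, 3, a and b. HFSC replicates 1 to 4 had 630.2, 622, 652 and 511, all below the DETC libraries, and the difference was 0.60 ± 0.17 (1.52-fold, adjusted p = 0.00801). Thy1hi replicates 1 to 4 had 645, 689, 821 and 465, overlapping the DETC range, and there the difference was 0.51 ± 0.17 (adjusted p = 0.0234). That call was lost without DETC replicate a (adjusted p = 0.0596) or without Thy1hi replicate 4 (0.120), and under 6 of 12 other settings, in each of which *Rbpj* stayed higher in DETCs. Thy1- replicates 1 to 4 had 711, 731, 734 and 536, and Thy1hi YFP+ replicates 1 to 3 had 452, 495 and 589.5.

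**Figure D2:**
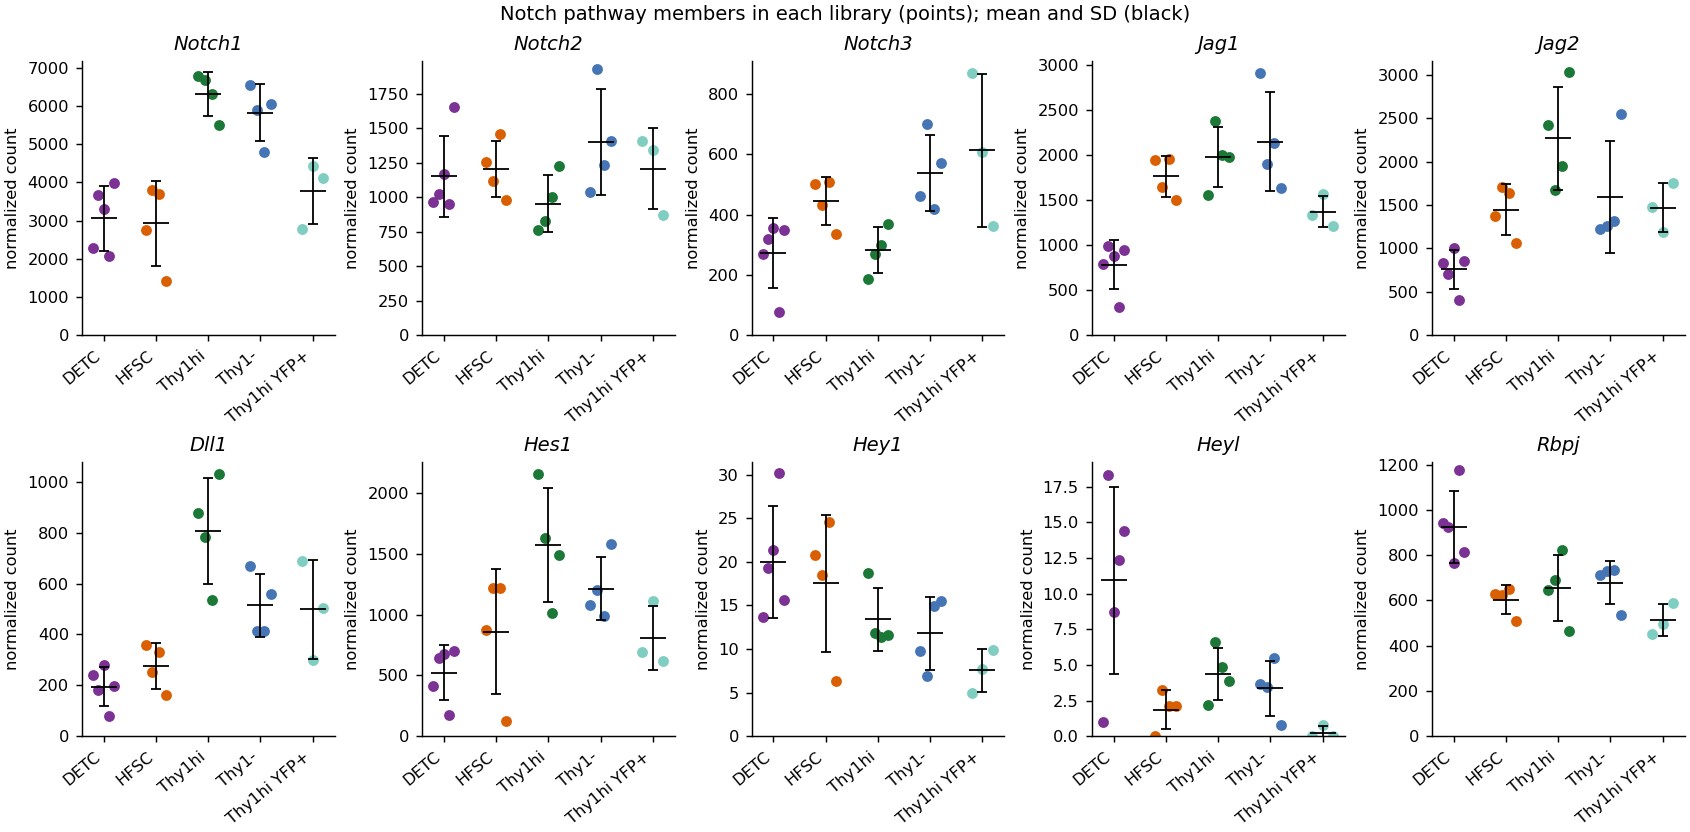
Each panel gives 1 member, with normalized counts on a linear vertical axis from 0, a point per library and the mean and SD of each population in black. All Thy1hi and Thy1- points of *Notch1* lie at or above 4782, the other populations lie at or below 4415, and HFSC replicate 4 is the low *Hes1* point at 128.

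Set side by side, the DETCs against Thy1hi cells differed in 6 of 10 members. The 5 that were lower were *Notch1*, *Jag1*, *Jag2*, *Dll1* and *Hes1*, a receptor, all 3 ligands and the main target, and *Rbpj* was the 1 that was higher. Of the 17204 genes tested, 16.6% were lower and 19.9% higher in this comparison, so calls were common in it. The median log2 difference of the members was -0.64, beside -0.00 over all genes. The 5 falls were called with each library left out in turn and under 12 of 12 other settings, save that *Notch1* was not called in the deposited row order, where it is listed at 0 in Thy1- replicate 4 (adjusted p = 0.689). DETC replicate a had the lowest level of *Notch1*, *Notch2*, *Notch3*, *Jag1*, *Jag2*, *Dll1* and *Hes1* among the DETC libraries and the highest of *Hey1* and *Rbpj*. For *Notch1* and *Notch2* replicate 1 was close to it (2270 against 2080, and 963 against 948). Replicate a also had the lowest basal keratinocyte marker sum (9972, against 33571 to 46131). The part of keratinocyte RNA in the DETC levels was not tested.

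Against HFSCs, 4 of 10 members were called in DETCs. *Jag1* and *Jag2* were lower, and *Heyl* and *Rbpj* were higher, beside 18.5% of all genes lower and 21.2% higher. *Heyl* passed the filter through 3 DETC libraries alone. Its call, here and in the blocked fit below, is therefore counted but is not evidence of a difference. Deviations of same-numbered DETC and HFSC libraries correlated weakly, with r of 0.170 to 0.333 in 3 pairs. That lies inside the range of the 17 other combinations (-0.318 to 0.371), so a pairing by number is not established. A blocked fit by that number, which was added once the data had been seen, holds replicates 1 to 3 of each. In it 7 of 10 members were called, with *Notch3* (-0.62 ± 0.13, adjusted p = 0.00640), *Dll1* (-0.43 ± 0.13, 0.0316) and *Hes1* (-0.95 ± 0.10, 0.000171) lower as well, against 19.6% of all genes lower and 22.6% higher. That fit leaves out HFSC replicate 4 along with DETC replicates a and b. The column letters in the sample descriptions, which were not used here, would set DETC replicate a beside HFSC replicate 4, and *Hes1* was 176 in the first and 128 in the second, opposite in direction to the 3 pairs fitted. The *Rbpj* call was lost under quantile normalization (0.22, adjusted p = 0.278). With HFSC replicate 4 left out and no block, the *Hes1* difference was -1.22 (adjusted p = 0.0104), while with all libraries the difference was -0.45 ± 0.51 (adjusted p = 0.511).

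Thy1hi cells differed from HFSCs in 2 of 10 members, *Notch1* and *Dll1*, both higher, where 6.51% of all genes were higher and 6.86% lower. With each library left out in turn, the difference was 0.89 to 1.37 for *Notch1* and 1.33 to 1.76 for *Dll1*, and both stayed called. The members' median was 0.40, beside 0.02 over all genes. In Thy1- cells against the same HFSC libraries 1 of 10 was called, *Notch1*, with 2.56% of all genes higher and 3.52% lower. These 2 comparisons share the HFSC libraries, and the difference between Thy1hi and Thy1- cells is the test of whether their values differ.

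**Figure D3:**
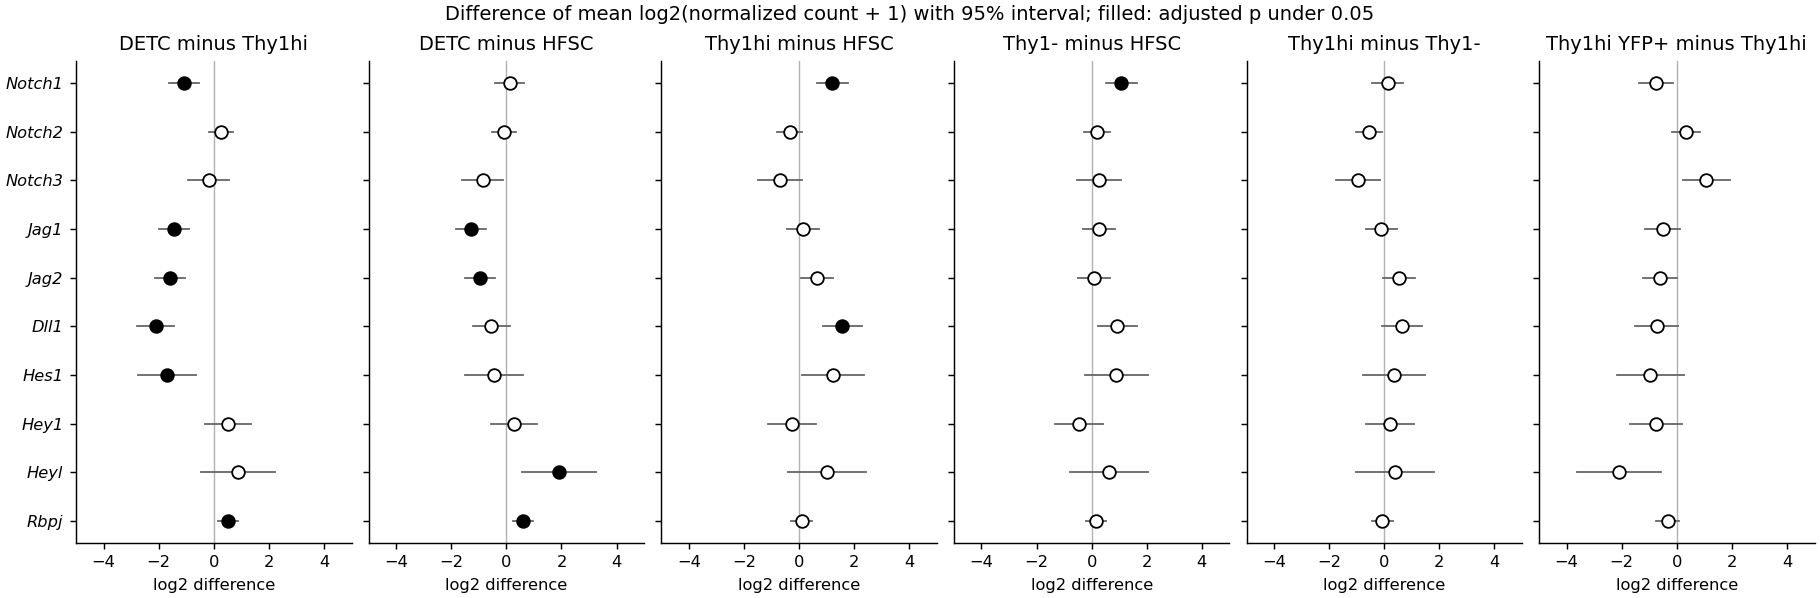
Points give the log2 difference of each member in the 6 comparisons with its 95% interval, and filled points passed an adjusted p of 0.05. In the first panel the intervals of *Notch1*, the 3 ligands and *Hes1* lie below 0, with *Dll1* at -2.11, and in the third those of the called *Notch1* and *Dll1* lie above 0.

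Between Thy1hi and Thy1- cells, no member was called in the fit without pairing (0 of 10), where 58 of 17204 genes (0.337%) were. At an unadjusted p under 0.05 the members had 2, *Notch2* and *Notch3*, beside 7.22% of all genes, and edgeR and DESeq2 called 0. Libraries of the same number had r of 0.293 to 0.716 in 4 pairs, against -0.651 to 0.514 in the 12 other combinations. Each Thy1hi library had its highest r with the Thy1- library of its own number. Pairs 1 and 3 (0.293 and 0.301) nevertheless lay inside the range of the other combinations. The pairing is read from the numbers in the titles and is not established, and the calls that follow depend on it. With the replicate number as a block in a fit of these 8 libraries 3 of 10 members were called. *Notch3* was lower in Thy1hi cells, with a difference of -0.94 ± 0.16 (adjusted p = 0.00666). *Dll1* was higher by 0.64 ± 0.12 (adjusted p = 0.0133) and *Jag2* by 0.55 ± 0.12 (adjusted p = 0.0264). In this fit 3.42% of all genes were higher and 3.19% lower. A block over all populations, which the numbers do not pair throughout, called no member in this comparison.

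Pair by pair, the log2 difference of *Notch3* was -1.30, -1.37, -0.48 and -0.62 in pairs 1 to 4. That of *Notch2* was -0.44, -1.22, -0.30 and -0.20, below 0 in 4 of 4 pairs, and it missed the threshold (adjusted p = 0.0693). For *Dll1* the pairs gave 0.40, 0.92, 0.37 and 0.88, and for *Jag2* 0.98, 0.42, 0.56 and 0.25. So these 4 genes moved 1 way in every pair, and the other 6, *Notch1*, *Jag1*, *Hes1*, *Hey1*, *Heyl* and *Rbpj*, had pairs of either sign. *Notch3* was the 1 member whose Thy1hi and Thy1- ranges did not overlap, as in 6.77% of all genes. The spinous keratinocyte markers *Krt1*, *Krt10*, *Krtdap* and *Sbsn* summed to 8164 to 25763 in Thy1hi libraries and 25220 to 38844 in Thy1- libraries. The fibroblast marker sums were 1881, 936, 178 and 387 in Thy1hi replicates 1 to 4 and 202, 201, 130.2 and 120.5 in Thy1- replicates 1 to 4, higher in Thy1hi in each of the 4 pairs. The part of either in these differences was not tested.

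**Figure D4:**
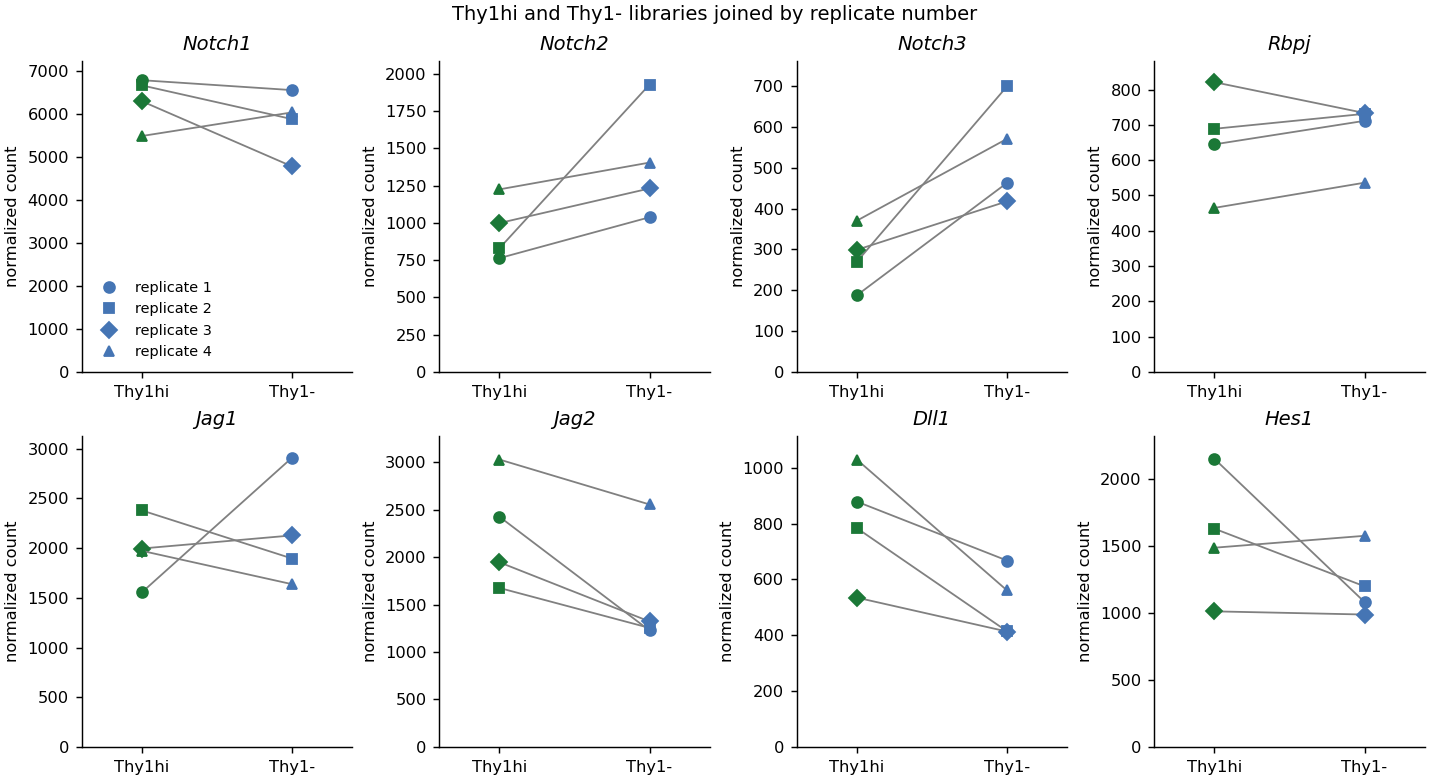
Normalized counts of 8 members in Thy1hi and Thy1- libraries are joined by replicate number, with a marker shape per number and a linear axis from 0. The 4 lines of *Notch3* rise from Thy1hi (188 to 371) to Thy1- (418 to 700.0), and those of *Dll1* and *Jag2* fall.

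Between Thy1hi YFP+ and Thy1hi cells 0 of 10 members were called, in a comparison with 2 calls among all genes (0.0116%), and edgeR and DESeq2 called 0 of the 10 as well. Unadjusted, 3 members were under 0.05, *Notch1*, *Notch3* and *Heyl*, as were 9.07% of all genes. *Notch1* was 3769 ± 870 in YFP+ cells (n = 3) and 6312 ± 586 in Thy1hi cells, a log2 difference of -0.77 (95% interval -1.38 to -0.15, adjusted p = 0.437). *Notch3* was 614 ± 253 and 282 ± 75.7, a difference of 1.07 (0.22 to 1.93, adjusted p = 0.437). The spinous marker sums of YFP+ replicates 1 to 3 were 56554, 32676 and 14942, in the same order as their *Notch3* levels, against 8164 to 25763 in Thy1hi libraries, and their part in the difference was not tested. The libraries of *Notch1*, *Hey1* and *Heyl* did not overlap between these populations, as in 10.5% of all genes. *Hey1* had 5 to 10 reads in YFP+ libraries against 9 to 17 in Thy1hi libraries, and *Heyl* 0 to 1 against 2 to 6. Both are near the limit of counting, and *Heyl* passed the filter through DETC libraries alone. With 3 against 4 libraries, no exact two-sided p can be below 0.0571. The 3 ligands had differences of -0.52, -0.61 and -0.73, each with an interval that includes 0. With tamoxifen, mouse line and labelled age differing between these groups, their effects cannot be told apart.

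The wider pathway was read from 53 genes in 7 lists by role, of which 44 passed the filter, *Mfng* through DETC libraries alone. In DETCs against Thy1hi cells 11 were higher and 8 lower, against HFSCs 10 were higher and 6 lower, and in Thy1hi cells against HFSCs 5 were higher and 6 lower. As shares of the 44, these are 25.0% and 18.2%, 22.7% and 13.6%, and 11.4% and 13.6%, beside 19.9% and 16.6%, 21.2% and 18.5%, and 6.51% and 6.86% of all genes. The shares in both DETC comparisons were thus near those of all genes. Their median log2 differences were 0.11, 0.16 and 0.17, where those of all genes were -0.00, 0.02 and 0.02. These comparisons share libraries, so their values are given side by side and not as separate support.

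The list of ligand E3 ligases holds *Neurl3*, of the Neuralized family. Whether it acts on a Notch ligand was not tested. *Neurl3* had 2915 to 7782 normalized counts in DETC libraries against 28.4 to 86.9 in Thy1hi and 41.3 to 82.3 in HFSC libraries. The log2 differences were 6.11 ± 0.36 (adjusted p = 1.30e-10) and 5.90 ± 0.36 (adjusted p = 1.81e-10). *Mib2*, of the Mind bomb ligases that let a ligand pull on the receptor, was also higher in DETCs, by 1.64 over Thy1hi cells and 0.84 over HFSCs, and *Neurl1b* was lower, at -0.94 and -0.78. Relative to HFSCs, *Mib2* was lower in Thy1hi cells (-0.80).

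Of the 5 glycosyltransferases, which place the sugars that tune a receptor's choice of ligand, *Mfng* (manic fringe) had 131 reads over the DETC libraries, 2 over the Thy1hi libraries and 9 over the HFSC libraries. It passed the filter through DETC libraries, so its calls are not evidence of a difference and its reads are given instead. Per size factor, that is 53.2-fold the Thy1hi level (exact 95% interval 14.4 to 444, counting error only) and 12.5-fold the HFSC level (6.39 to 27.9). These ratios pool the same reads over libraries, so they describe the counts and are no evidence of a difference either. *Lfng* (lunatic fringe) was higher in DETCs than in Thy1hi cells by 0.92, and *Rfng* (radical fringe) was lower (-1.50). *Rfng* was also higher in Thy1hi cells than in HFSCs, by 0.92. *Pofut1* and *Poglut1*, which add the first fucose and glucose, were lower in DETCs than in HFSCs, at -0.71 and -0.81, and both calls were lost with the replicate block (-0.36 and -0.46, adjusted p = 0.0942 and 0.198).

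Among the proteases that cut the receptor, *Psen2*, a catalytic subunit of γ-secretase, was higher in DETCs than in Thy1hi cells by 1.93 and than in HFSCs by 1.60, and *Aph1a* was lower than in Thy1hi cells (-0.73). The other 7 of the 9 were called in neither comparison without the block, *Adam10* and *Adam17* among them. In the nucleus, the coactivator *Maml2* was lower in DETCs, at -1.09 and -1.79, and *Kdm5a*, a histone demethylase that binds Rbpj, was higher by 1.06 and 1.26. In DETCs, *Maml3* was lower than in Thy1hi cells (-0.86). Relative to HFSCs, Thy1hi cells had less *Tle1* (-1.14) and *Cir1* (-0.76), both corepressors, and more *Maml3* (0.49).

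Of the 10 tested genes of receptor turnover, 2 were higher and 3 lower in Thy1hi cells than in HFSCs, with a list median of -0.06. *Numbl* and *Dtx3* were lower in Thy1hi cells than in HFSCs, at -1.37 and -1.45, and *Dtx2* was higher by 1.20. The same 3 were called in Thy1- cells against HFSCs, at -1.05, -1.46 and 1.04, and *Maml2* was the fourth gene called there (-1.18), for 1 higher and 3 lower in all. In DETCs, *Dtx3* and *Numbl* were higher than in Thy1hi cells, by 1.62 and 1.27, and *Dtx2* was lower (-0.96). Against HFSCs, *Dtx3l* (1.07) and *Fbxw7* (0.69) were higher and *Numb*, which turns the receptor over in dividing cells, was lower (-0.39).

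Of the other targets, *Hes6*, a further member of the Hes family, was higher in DETCs than in Thy1hi cells by 1.19. *Dlk2*, a non-canonical ligand, was lower in DETCs than in Thy1hi cells (-2.02) and HFSCs (-1.43). *Dll3*, *Dll4*, *Dlk1*, *Dner*, *Neurl1a*, *Dtx1*, *Hes5*, *Hey2* and *Ptcra* did not reach the filter. Between Thy1hi and Thy1- cells and between Thy1hi YFP+ and Thy1hi cells 0 of the 44 were called, with 2 (4.55%) at an unadjusted p under 0.05 in each, beside 7.22% and 9.07% of all genes. With the replicate block, 2 were higher in Thy1hi than in Thy1- cells, *Dlk2* (0.69, adjusted p = 0.0376) among them, and 2 were lower, *Tle1* (-1.03, 0.00169) and *Cir1* (-0.50, 0.0286).

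**Figure D5:**
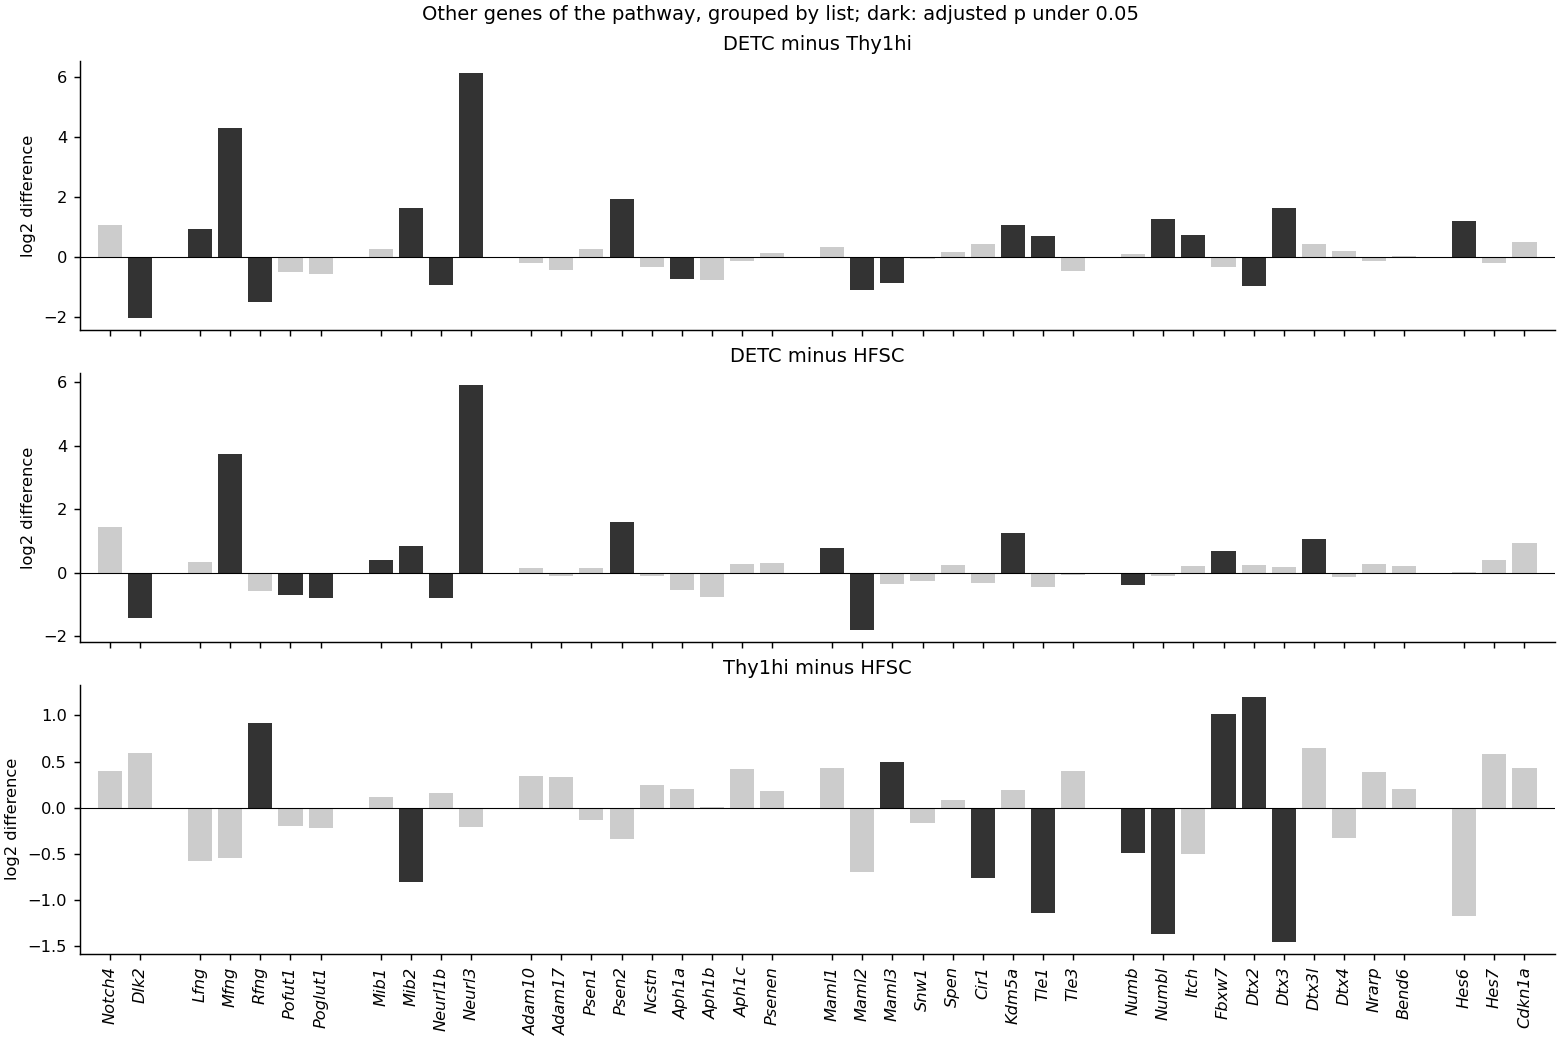
Bars give the log2 difference of genes in the wider pathway lists, grouped by list along the horizontal axis. The panels give DETCs against Thy1hi cells, DETCs against HFSCs and Thy1hi cells against HFSCs, each with its own scale. Dark bars passed an adjusted p of 0.05, and *Neurl3* is the tallest bar of the first 2 panels, at 6.11 and 5.90.

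Genes outside the members with the most similar pattern were found by the root mean square (RMS) difference of mean-centred log2 values over the 20 libraries, among 17194 tested genes. For *Notch1*, whose own RMS around its mean was 0.61, they were *Cdh1*, which encodes E-cadherin (0.22), *Slc15a4* (0.24) and *Srf* (0.25). For *Jag1* (0.70) they were *Arhgef5* (0.21), *Afap1l2* (0.23) and *Pik3cb* (0.23), and for *Jag2* (0.66) *Fam189a2* (0.22), *Ptk7* (0.23) and *Kif13a* (0.23). For *Dll1* (0.91) they were *Htra1* (0.29), *Tnxb* (0.31) and *Wnk2* (0.32). *Hes1* (0.99) was most like *Bmp2*, a ligand of the bone morphogenetic protein family (0.30), then *Epha2* (0.35) and *Plet1* (0.37). For *Rbpj* (0.35) the nearest were *Mynn* (0.16), *Casc3* (0.18) and *Sec62* (0.18). *Heyl* (1.25) had no close match, its nearest gene *Dapp1* lying at 0.75, followed by *Dpp6* and *Vmn1r220* at 0.78 each.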

How the data were processed

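RNA was read in 20 libraries of 5 sorted populations. The authors deposited a signal per gene: reads aligned to mm10 with STAR, counted with featureCounts against Ensembl genes and divided by a DESeq2 size factor (0.729 to 1.43). No version of STAR or featureCounts is given in the sources used here. Multiplied by its size factor, 100% of values up to 100 gave whole reads (within 0.006 plus 2e-05 of the value) in every library. The design text names 2 batches and the protocols 2 library kits, but no sample is tied to either, so no batch term was possible. Sample descriptions also give column letters, which were not used to number DETC replicates a and b.

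Differences were fitted with limma 3.58.1 (R 4.3.3, trend) on log2(normalized count + 1), with all 20 libraries in 1 fit and 1 mean per population, over the 17204 genes that reached 10 in 3 or more libraries, all 10 members among them. Tests are two-sided, adjusted by the Benjamini-Hochberg method per comparison, and called under 0.05. An adjusted p beside a gene is limma's unless another tool is named. Levels between genes were compared per kilobase of exon (GENCODE M21, GRCm38, 10 of 10 members matched). Exact permutation tests used mean log2 values or shares. The members and lists were chosen with earlier results of these data known. Named genes are the 10 members in every comparison, up to 3 called genes by size of difference in each pathway list and comparison, and the 3 nearest genes in pattern of each called member. Some genes that this rule names are counted but not reported here by name.

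Pairing was checked by correlating deviations from population means. Same-numbered Thy1hi and Thy1- libraries had r of 0.293 to 0.716 in 4 pairs (-0.651 to 0.514 in the 12 other combinations), and DETC and HFSC libraries 0.170 to 0.333 in 3 pairs (-0.318 to 0.371 in the 17 others). In the other 4 comparisons at least 1 pair was under 0.1. The numbers come from the sample titles.

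Alternatives were pseudocounts of 0.1 and 10, no filter, a filter at a mean of 50, equal library totals, quantile normalization, edgeR 4.0.16 and DESeq2 1.42.0 on whole reads, only the 2 populations in the fit, replicate blocks, the deposited row order and each library left out. Added after the data were seen were the block for DETCs and HFSCs, rescaling without *Rn45s* and the transcript length. On simulated libraries for Thy1hi against Thy1- cells (17204 genes), the 2-fold changes were found for 32 of 82 genes, those of 4-fold for 54 of 56 and those of 8-fold for 61 of 62, with 8 false calls in 17004. The changes were placed only in genes with a mean of at least 50, so they do not cover genes as low as *Hey1* and *Heyl*. The simulated libraries were drawn independently, without the shared deviations of same-numbered libraries. Python was 3.11.15.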

Additional observations from a re-analysis of the deposited data

Results flagged for a closer look

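In 40 sets of libraries, 1 for each member in each population of 4 or 5 libraries, 3 held a library far from the others. Chance marks about 1 in 20 such sets. *Jag2* in Thy1- replicate 4 was 2555 normalized counts, against 1227 to 1322 in the other Thy1- libraries. *Rbpj* in the same library was 536, against 711 to 734. Neither row was moved when the order of that library was put back. *Hey1* in Thy1hi replicate 1 was 18.8, against 11.4 to 11.9 in the other Thy1hi libraries, at 17 reads against 9 to 14.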

How the results depend on the processing

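Of the differences of single members, 468 kept their direction and call when 1 library was left out, 8 lost the call, 3 gained it and 11 changed sign. Under the other alternatives 685 were kept, 16 lost the call, 9 gained it and 15 changed sign. Rescaled to the same total, each of the 50 levels moved by less than the SD of its population. By transcript length, the 36 differences of shares kept their direction, and none was called with either length. Of these 26 changes of sign, 1 touched a call, that of *Notch1* in Thy1- cells against HFSCs in the deposited order. The causes were not tested, except that the deposited order lists receptors of Thy1- replicate 4 at or near 0. Depth limits *Hey1* and *Heyl*.

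With each library left out in turn, the members called were 5 to 6 and all genes called 5472 to 6249 in DETCs against Thy1hi cells, 3 to 5 and 5822 to 7001 in DETCs against HFSCs, 2 and 1549 to 2582 in Thy1hi cells against HFSCs, 0 to 1 and 511 to 1965 in Thy1- cells against HFSCs, 0 and 13 to 38 in Thy1hi against Thy1- cells, and 0 and 0 to 4 in Thy1hi YFP+ against Thy1hi cells. Signs changed in DETCs against Thy1hi cells for *Notch3* (-0.36 to 0.23), in DETCs against HFSCs for *Notch1* (-0.19 to 0.28), *Notch2* (-0.22 to 0.018) and *Hey1* (-0.12 to 0.48), in Thy1hi cells against HFSCs for *Rbpj* (-0.025 to 0.25), in Thy1- cells against HFSCs for *Jag2* (-0.17 to 0.19), and in Thy1hi against Thy1- cells for *Jag1* (-0.22 to 0.058), *Rbpj* (-0.19 to 0.087) and *Hey1* (-0.0047 to 0.35).

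In Thy1- cells against HFSCs, 1 member and 1046 genes were called, and the members were 2 with equal totals (*Dll1* 1.15), 2 with the block over all populations, 0 in the deposited order and 0 with these populations alone. The genes there were 2402 by DESeq2, 640 with these populations alone and 2701 with the block over all. Thy1hi against Thy1- cells had 58 genes, and 34 with equal totals, 210 by DESeq2 and 95 alone. Thy1hi YFP+ against Thy1hi cells had 2 genes, and 25 with a pseudocount of 10, 0 with equal totals, 6 by quantiles, 113 by DESeq2 and 16 alone. In the deposited order 1 member was called in Thy1hi cells against HFSCs. *Notch1* was -0.0023 in Thy1hi against Thy1- cells with equal totals.

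With a replicate block over all populations, which the numbers do not pair throughout, 2 members were called in DETCs against HFSCs (*Jag2* -0.67, adjusted p = 0.0579), and 3799 genes in Thy1hi cells against HFSCs, 216 in Thy1hi against Thy1- cells and 161 in Thy1hi YFP+ against Thy1hi cells. *Notch3* was 0.21 in DETCs against Thy1hi cells. With the replicate block in a fit of only the 2 populations, 7 members were called in DETCs against HFSCs, with *Notch1* at -0.17 and *Hey1* at -0.23. In Thy1hi against Thy1- cells such a fit called 3 members and 1137 genes.

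Quantile normalization turned *Notch2* to -0.011 in DETCs against Thy1hi cells, *Notch1* to -0.29 in DETCs against HFSCs, *Jag1* to -0.046 and *Rbpj* to -0.0077 in Thy1hi cells against HFSCs, and *Heyl* to -0.032 and *Jag2* to -0.013 in Thy1- cells against HFSCs. In the deposited order, Thy1- cells against HFSCs had *Notch1* at -2.06, *Notch2* at -2.42 and *Notch3* at -1.68, and Thy1hi against Thy1- cells had *Notch2* at 2.07 and *Notch3* at 0.996.

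Quantile normalization moved the median of all genes by -0.20 in DETCs against Thy1hi cells and -0.18 against HFSCs, and the share of calls that were higher from 54.5% to 42.6% and from 53.3% to 43.2%. Equal totals moved the median by 0.21 in Thy1- cells against HFSCs (0.13 without *Rn45s*) and -0.12 in Thy1hi against Thy1- cells. They moved the share from 48.7% to 61.5% in Thy1hi cells against HFSCs, from 42.1% to 71.6% (63.5% without *Rn45s*) in Thy1- cells against HFSCs, and from 34.5% to 11.8% (20.0% without *Rn45s*, 47.6% by DESeq2) in Thy1hi against Thy1- cells. In Thy1hi YFP+ against Thy1hi cells both calls were higher, and 57.5% were by DESeq2 and 66.7% by quantiles.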

Other observations

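The Thy1hi YFP+ libraries were also below the Thy1- libraries in *Notch1*, at 2780 to 4415 normalized counts against 4782 to 6559 with no overlap. Both are Sca1+ keratinocytes by their titles, and tamoxifen, mouse line and labelled age differ between them. That contrast was not among those fitted and was not tested. The share of all genes without overlap was not counted for it. *Notch3* ran from 364 to 870.2 in the YFP+ libraries and from 75.5 to 354 in the DETC libraries. *Hes1* was 128 in HFSC replicate 4 and 176 in DETC replicate a, the lowest of the 20 libraries, and the next lowest was 410 in DETC replicate 1.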
